A study of Caenorhabditis elegans with 5 samples.

Results

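The cyp-13A genes are a family of cytochrome P450 genes of the nematode Caenorhabditis elegans, most of them side by side on chromosome II. The 10 genes described here (cyp-13A1, cyp-13A2, cyp-13A4 to cyp-13A8 and cyp-13A10 to cyp-13A12) were taken by gene symbol from 45251 genes in the count tables, which held 74 cytochrome P450 genes in all. The family was selected on earlier values of the same contrast, the fold change of P450 genes between BPTMC and DMSO, so the difference between the groups is given for these genes as a description. RNA came from whole wild-type worms of the N2 strain, labelled as from L4, the last larval stage, to adult, kept at 20 °C on agar with E. coli OP50 as food. The BPTMC group (3 libraries) spent 24 h on plates with 1 mM bisphenol TMC, a bisphenol, and the DMSO group (2 libraries) spent 24 h on plates with dimethyl sulfoxide, the solvent used as the control. The labels give the same concentration for both additions and do not say whether the replicates were separate cultures, so all errors measure the spread between these libraries, which may be technical. Levels are 3' tag counts, in which a transcript gives about the same number of reads whatever its length, scaled to counts per 1000000 reads (CPM) by the trimmed mean of M-values (TMM).

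Cytochromes P450 are haem enzymes that use electrons from a reductase to insert an oxygen atom into lipid-soluble compounds, often the opening step in the breakdown of a foreign chemical. In C. elegans much of this metabolism takes place in the intestine, and the worm's P450 genes have multiplied into tandem arrays. The CYP13A enzymes belong to the same P450 clan as the vertebrate CYP3A drug-metabolising enzymes. For most of the family the substrates are not known.

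Total counts were 16531114 to 24362712 per library. BPTMC replicate 1 stood apart from the other libraries on the leading principal component (86.5, against -61.3 to -0.495). In whole worms, fewer cells of a type and less RNA per cell cannot be told apart. Intestinal markers (7 of 8 listed had a row, and each of the 7 had reads) summed to 1340 and 1010 CPM in DMSO replicates 1 and 2 and to 2960, 1240 and 1660 CPM in BPTMC replicates 1, 2 and 3. Markers of oocytes and the germline (8 of 8 with reads) summed to 1350 and 3580 CPM in DMSO, against to 407, 2090 and 2670 CPM in BPTMC. Sperm markers (8 of 8 with reads) summed to 18.8 and 8.27 CPM in DMSO, against to 79.7, 9.65 and 57.5 CPM in BPTMC. Epidermal markers ran from 987 to 2260 CPM and muscle markers from 819 to 2590 CPM over the 5 libraries. The groups overlapped in all 5 of these sums, whereas the neuronal markers summed to 818 and 842 CPM in DMSO and to less in BPTMC (647, 728 and 752 CPM). By gene, log2 fold changes (BPTMC over DMSO) were positive in 7 of 7 intestinal and 7 of 7 sperm markers tested. All 8 oocyte and germline markers were negative, where 45.5% of all tested genes were positive. Epidermal (6 of 8) and muscle (7 of 8) markers were mostly positive, and neuronal markers were mixed (3 positive and 4 negative). None of these markers passed the edgeR test given below.

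The 10 genes together held 229 and 121 reads in the DMSO libraries and 1961, 1205 and 1774 reads in the BPTMC libraries. Scaled for depth, that was 10.3 and 5.69 CPM in DMSO, against 95.9, 61.5 and 90.2 CPM in BPTMC. Each BPTMC library thus exceeded both DMSO libraries several times over. Without the pair with the most reads, cyp-13A5 and cyp-13A10, the remaining 8 genes summed to 5.28 and 2.63 CPM in DMSO, against 29.9, 19.8 and 25.3 CPM in BPTMC. Among all P450 reads the family held 2.90% (95% Clopper-Pearson interval 2.54 to 3.29) and 1.67% (1.39 to 2.0) in DMSO. In BPTMC it held 21.7% (20.8 to 22.5), 14.2% (13.5 to 15.0) and 20.8% (19.9 to 21.6). The other 64 P450 genes, cyp-13A3 among them, summed to 343 and 334 CPM in DMSO, against 347, 372 and 344 CPM in BPTMC. That total does not describe its members singly: cyp-31A2, cyp-31A3 and cyp-31A5, with 4386, 1337 and 1701 DMSO reads, had log2 fold changes of -0.54, -0.73 and -0.49, all chosen after their values were seen, while cyp-34A7 (5.69) and cyp-34A9 (3.13) had values in the range of those of the cyp-13A genes given below. Intervals and limits given here cover counting error only.

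**Figure D1:**
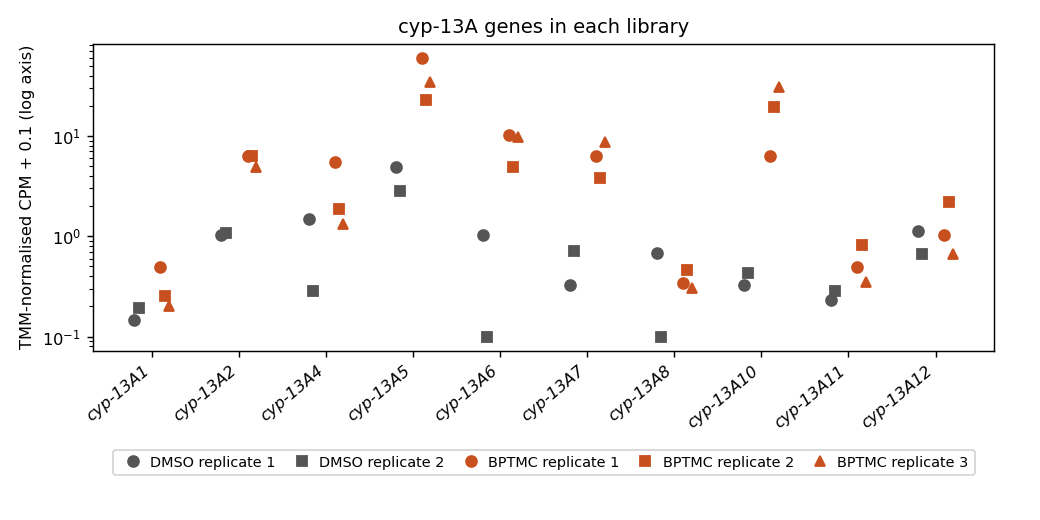
TMM-normalised CPM plus 0.1 on a log axis for each of the 10 cyp-13A genes, with 1 point per library, grey for DMSO and orange for BPTMC. The BPTMC points of cyp-13A5 (22.5 to 59.8 CPM) and cyp-13A10 (6.21 to 30.5 CPM) lie far above the DMSO points, while those of cyp-13A4, cyp-13A8 and cyp-13A12 overlap them.

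cyp-13A5 (WBGene00011672, minus strand of chromosome II, 9798277 to 9800362 on WBcel235) had the most reads of the family in every library. It had 106 and 58 reads in DMSO and 1223, 440 and 676 in BPTMC, or 4.75 and 2.73 CPM against 59.8, 22.5 and 34.4 CPM. The groups did not overlap, and the BPTMC libraries spanned a 2.66-fold range with replicate 1 highest. The log2 fold change was 3.38 ± 0.59 (SE), from a mean of 3.74 ± 1.43 CPM (SD, n = 2) to 38.9 ± 19.1 CPM (SD, n = 3). Within each group, the order of its levels was that of the intestinal marker sum given above. The sperm marker sum and the scores on the leading principal component had the same order, so it is not particular to the intestine. The part of any of these in the result was not tested.

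cyp-13A10 (WBGene00014254, minus strand of chromosome II, 9660839 to 9662884) showed the widest gap between the groups among the 10 genes. It had 5 and 7 reads in DMSO and 127, 377 and 600 in BPTMC, which is 0.224 and 0.329 CPM against 6.21, 19.2 and 30.5 CPM. Nearly silent in both DMSO libraries, it ranked second in the family by reads in BPTMC replicates 2 and 3. In BPTMC replicate 1, where cyp-13A5 peaked, cyp-13A10 had its lowest BPTMC level, and the 3 libraries spanned a 4.91-fold range. Pooled over libraries, normalised reads were 67.2-fold higher in BPTMC (95% counting interval 38.3 to 130), and the fitted log2 fold change was 6.05 ± 0.89.

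cyp-13A6 (WBGene00011673, minus strand, 9800758 to 9802821) lies 395 bases from cyp-13A5. Its reads were 21 and 0 in DMSO and 205, 95 and 189 in BPTMC, or 0.94 and 0 CPM against 10.02, 4.85 and 9.61 CPM. The DMSO replicates differed, since 0 reads in DMSO replicate 2 allow up to 0.141 CPM, whereas DMSO replicate 1 was well above that limit. The log2 fold change was 4.08 ± 1.00, and without DMSO replicate 2 it was 3.14. Without DMSO replicate 1 no DMSO read was left, and the fitted value is then no bound.

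cyp-13A7 (WBGene00000372, 9803620 to 9805513) is the single member of the array on the plus strand and has been studied as a gene induced by the drug rifampicin. It had 5 and 13 reads in DMSO and 128, 72 and 168 in BPTMC, or 0.224 and 0.611 CPM against 6.26, 3.68 and 8.54 CPM. All BPTMC libraries lay above both DMSO libraries, with replicate 3 highest. The log2 fold change was 3.87 ± 0.70. It was 3.31 without DMSO replicate 1 and 4.76 without DMSO replicate 2, each of which leaves a single DMSO library.

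cyp-13A2 (WBGene00011676, minus strand, 9783384 to 9787629) varied least within the groups. It had 21 and 21 reads in DMSO and 127, 121 and 95 in BPTMC, or 0.94 and 0.987 CPM against 6.21, 6.18 and 4.83 CPM. Its BPTMC levels spanned a 1.29-fold range, and the log2 fold change was 2.57 ± 0.51. It was therefore at much the same level in BPTMC replicate 1 as in replicate 2, unlike cyp-13A5 and cyp-13A10.

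cyp-13A4 (WBGene00011671, minus strand, 9795756 to 9797740) did not separate the groups. Its reads were 31 and 4 in DMSO and 111, 35 and 24 in BPTMC, or 1.39 and 0.188 CPM against 5.43, 1.79 and 1.22 CPM. BPTMC replicate 3 was below DMSO replicate 1. The log2 fold change of 1.82 ± 0.93 became 3.85 when DMSO replicate 1 was left out, 1.09 without DMSO replicate 2, and 0.94 if BPTMC replicate 1 was dropped, so single libraries decided its size.

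cyp-13A1 and cyp-13A8, at the ends of the array, had few reads in any library. cyp-13A1 (WBGene00011677, minus strand, 9779181 to 9781997) had 1 and 2 reads in DMSO and 8, 3 and 2 in BPTMC, with a pooled ratio of 3.16 (95% counting interval 0.87 to 17.3). cyp-13A8 (WBGene00011674, minus strand, 9805600 to 9807569) had 13 and 0 reads in DMSO and 5, 7 and 4 in BPTMC, a pooled ratio of 0.899 (0.405 to 2.03). Neither interval excluded a ratio of 1, and a difference was not detectable at this depth, although the highest DMSO library of cyp-13A1 (0.094 CPM) lay just below its lowest BPTMC library (0.102 CPM).

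cyp-13A11 and cyp-13A12 form a separate pair on the plus strand of chromosome III, 501 bases apart. cyp-13A12 (WBGene00008810, 13024547 to 13028017) is known to act in the behavioural response to reoxygenation downstream of the oxygen sensor EGL-9 and the hypoxia factor HIF-1. It had 23 and 12 reads in DMSO and 19, 41 and 11 in BPTMC, or 1.03 and 0.564 CPM against 0.929, 2.09 and 0.559 CPM. The groups overlapped, and the log2 fold change of 0.57 ± 0.75 fell to -0.03 without BPTMC replicate 2. cyp-13A11 (WBGene00008809, 13021006 to 13024045) had 3 and 4 reads in DMSO and 8, 14 and 5 in BPTMC, a pooled ratio of 2.82 (1.20 to 7.66). Its groups did not overlap, but at 0.134 to 0.715 CPM it stayed near the limit of detection, since 3 reads correspond to 0.134 to 0.153 CPM in these libraries.

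In the test across all genes, 7 of the 10 members had enough reads to be tested and 3 (cyp-13A1, cyp-13A8 and cyp-13A11) did not. edgeR, by its quasi-likelihood test with p-values adjusted over 14238 genes (Benjamini-Hochberg), called 0 of the 7, against 0.105% of all tested genes called higher and 0% called lower. The smallest adjusted p was 0.0723, for cyp-13A10 (by edgeR), which was higher in 3 of 3 BPTMC libraries. Over the alternatives for this gene the adjusted p ran from 7.67e-19 (edgeR with a replicate block) to 0.661 (limma-voom). The block treats libraries of the same number as pairs, which the labels do not state. Apart from the block, the lowest value was 5.55e-11 (DESeq2). At an unadjusted p under 0.05, 5 of the 7 were higher and none was lower, against 7% and 0.4% of all tested genes. DESeq2 called 5 (cyp-13A2, cyp-13A5, cyp-13A6, cyp-13A7 and cyp-13A10) against 1.67% of all genes called higher and 0.0211% called lower, and limma-voom called 0 against 0.00702%. In 5 of the 7 every BPTMC library was above both DMSO libraries, against 13.4% of all tested genes, and in 0 every BPTMC library was below them, against 9.96%. Because the list was drawn up with this contrast known, and because low genes pass the filter through the group in which they are high, nothing about the family is read from these counts. With single libraries left out, cyp-13A10 passed without DMSO replicate 1 (edgeR adjusted p = 0.0338) or BPTMC replicate 1 (0.00439), and cyp-13A6 without DMSO replicate 1 (0.0152). Without DMSO replicate 1 a single DMSO library is left, which is assumed to vary like the BPTMC libraries, and for cyp-13A6 that library has 0 reads.

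The make-up of the family differed between libraries as well as its total. cyp-13A5 held 46.3% (39.7 to 53.0) and 47.9% (38.8 to 57.2) of the reads of the 10 genes in DMSO replicates 1 and 2. In BPTMC it held 62.4% (60.2 to 64.5), 36.5% (33.8 to 39.3) and 38.1% (35.8 to 40.4). cyp-13A5 was thus the leading member throughout, with its largest share in BPTMC replicate 1 and its smallest in the other BPTMC libraries. cyp-13A10 held 2.18% (0.713 to 5.02) and 5.79% (2.36 to 11.6) in DMSO and 6.48% (5.43 to 7.66), 31.3% (28.7 to 33.99) and 33.8% (31.6 to 36.1) in BPTMC. In BPTMC replicate 1 its share lay within the range allowed by DMSO replicate 2, although its level there was far above that of either DMSO library. cyp-13A12 went the other way as a share, from 10.04% and 9.92% in DMSO to 0.969%, 3.40% and 0.620% in BPTMC, with its own level overlapping between the groups. The mean shares of cyp-13A1, cyp-13A2, cyp-13A4, cyp-13A8 and cyp-13A11 were also lower in BPTMC. For cyp-13A2 the mean share was 13.3% in DMSO and 7.29% in BPTMC, although its level was higher in every BPTMC library.

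**Figure D2:**
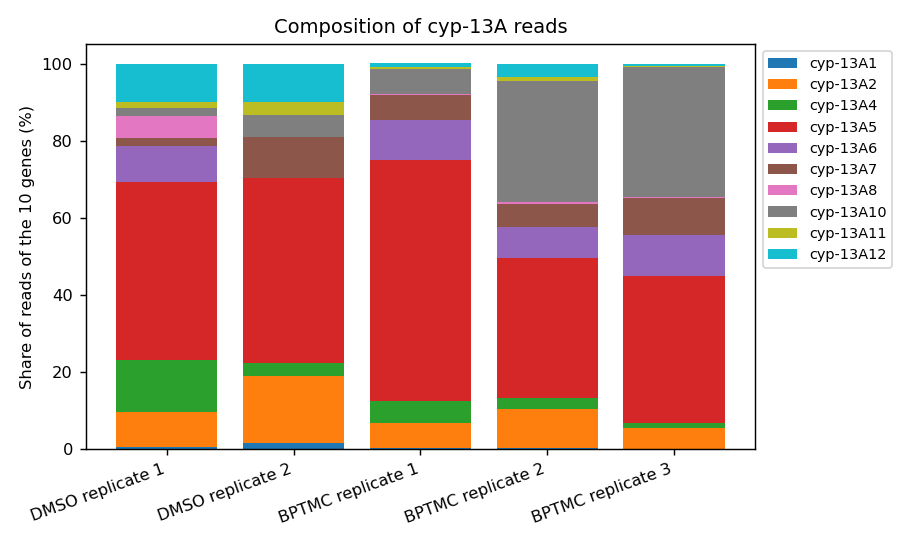
Reads of each of the 10 cyp-13A genes as a percentage of the reads of all 10, stacked by library. cyp-13A5 is the largest segment in every bar (36.5% to 62.4%), and cyp-13A10 grows to 31.3% and 33.8% in BPTMC replicates 2 and 3.

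The 10 genes have spliced lengths of 1594 to 2258 bases, the longest being cyp-13A2. Counted per kb of spliced transcript, the share of cyp-13A2 was 6.96% and 13.4% in DMSO in place of 9.17% and 17.4%. cyp-13A5 then held 37.7% to 63.7% and cyp-13A10 2.23% to 34.2% over the 5 libraries. Set against cyp-13A5 alone, cyp-13A10 made up 9.41% (7.90 to 11.1) of the reads of the pair in BPTMC replicate 1, 46.1% (42.7 to 49.6) in replicate 2 and 47.0% (44.3 to 49.8) in replicate 3. These intervals left BPTMC replicate 1 apart from the other BPTMC libraries by more than counting error. Within BPTMC, cyp-13A6 varied less against its neighbour cyp-13A5 than cyp-13A10 did. It made up 16.5% (10.5 to 24.2) of the reads of the pair in DMSO replicate 1 and 14.4% (12.6 to 16.3), 17.8% (14.6 to 21.3) and 21.8% (19.1 to 24.8) in BPTMC. In DMSO replicate 2 it had 0 of 58 reads, with an upper limit of 6.16%, and its intervals in BPTMC replicates 1 and 3 did not overlap. cyp-13A4, the neighbour on the other side of cyp-13A5, made up 22.6% and 6.45% of that pair in DMSO. In BPTMC replicates 1, 2 and 3 it made up 8.32%, 7.37% and 3.43%.

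Within the BPTMC group, 5 members were highest in replicate 1 (cyp-13A1, cyp-13A2, cyp-13A4, cyp-13A5 and cyp-13A6), 3 in replicate 2 (cyp-13A8, cyp-13A11 and cyp-13A12) and 2 in replicate 3 (cyp-13A7 and cyp-13A10). The 2 genes on chromosome III were both highest in BPTMC replicate 2, though cyp-13A11 had only 8, 14 and 5 reads in BPTMC replicates 1, 2 and 3. Other orders also rest on small differences. cyp-13A2 had 6.21 and 6.18 CPM in BPTMC replicates 1 and 2. In BPTMC replicates 1, 2 and 3, cyp-13A1 had 8, 3 and 2 reads and cyp-13A8 had 5, 7 and 4.

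The array on chromosome II held 8 annotated protein-coding cyp-13A genes over 28.4 kb, 7 of them members, and a pseudogene between cyp-13A3 and cyp-13A4 that was not analysed here. cyp-13A10 lies 116 kb to the left of it. From left to right the pooled ratio of BPTMC to DMSO was 3.16 for cyp-13A1, 5.96 (4.32 to 8.43) for cyp-13A2, 3.55 (2.45 to 5.26) for cyp-13A4, 10.4 (8.89 to 12.3) for cyp-13A5, 17.01 (11 to 27.7) for cyp-13A6, 14.9 (9.31 to 25.5) for cyp-13A7 and 0.899 for cyp-13A8. Among these 7 members the ratios were largest in cyp-13A5, cyp-13A6 and cyp-13A7 and lowest at the right end. cyp-13A3, between cyp-13A2 and cyp-13A4, had no DMSO read, and its lower bound of 27.0 lay above all 7 ratios. That bound leaves out the counting error of the BPTMC reads and lies below the upper limit for cyp-13A6 (27.7). It rests mainly on BPTMC replicate 1, with 89 reads against 7 and 15 in replicates 2 and 3. cyp-13A7 and cyp-13A8 face each other with their 3' ends 86 bases apart, and their counting intervals did not overlap.

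**Figure D3:**
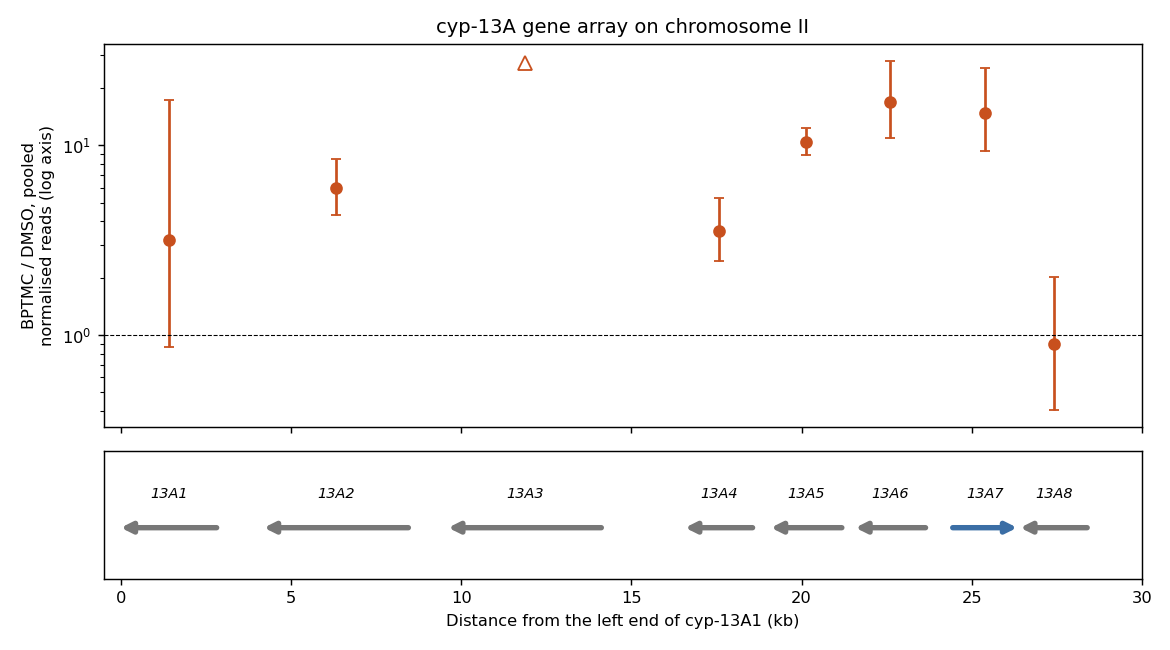
Top, ratio of pooled normalised reads in BPTMC to DMSO (log axis) for each gene of the chromosome II array, with 95% counting intervals and a dashed line at 1. The open triangle is the lower bound for cyp-13A3, which had 0 DMSO reads. Bottom, gene positions to scale in kb from the left end of cyp-13A1, with arrows pointing in the direction of transcription. cyp-13A8, at 0.899, is the gene whose point lies below the line.

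cyp-13A3 (WBGene00011675, minus strand, 9788797 to 9793297), a gene of the array outside the list, had 0 reads in both DMSO libraries and 89, 7 and 15 in BPTMC. Set against 3 reads for the whole DMSO group, it was at least 27.0-fold higher in BPTMC, without counting error of the BPTMC reads. Of its reads, 89 came from replicate 1. Its levels of 4.35, 0.357 and 0.763 CPM spanned a 12.2-fold range within the BPTMC group (edgeR adjusted p = 0.444). The other cyp-13 genes lie on chromosome X. cyp-13B1 had 0 and 4 reads in DMSO and 9, 4 and 25 in BPTMC. cyp-13B2 had 36 and 15 reads in DMSO and 9, 17 and 16 in BPTMC, a log2 fold change of -0.71 ± 0.69 with overlapping groups.

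Shared reads were looked for in the annotation. The 1 annotated gene that overlaps a member is T10B9.13, a non-coding RNA on the strand opposite cyp-13A6, with 3 and 0 reads in DMSO and 14, 4 and 9 in BPTMC. Whether the authors counted by strand is not given in the sources used here, so reads of T10B9.13 and cyp-13A6 cannot be told apart, though its reads were few beside the 205, 95 and 189 of cyp-13A6. In each of 5 pairs of cyp-13A5 with another member (cyp-13A2, cyp-13A4, cyp-13A6, cyp-13A7 and cyp-13A10), the shares of some libraries differed beyond their counting intervals, so no such pair kept a fixed ratio. How many bases the members' 3' ends have in common was not analysed here, and reads that fit several members equally well could have been placed on any of them, so the split between close paralogs is uncertain.

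Next to cyp-13A10, the nearest protein-coding genes on either side lie on the same strand. ZK1320.3, 419 bases beyond its 3' end, had 32.5 and 16.4 CPM in DMSO, against 112, 46.6 and 38.7 CPM in BPTMC. That is a log2 fold change of 1.42 ± 0.58 (edgeR adjusted p = 0.641), and its order within BPTMC was the reverse of that of cyp-13A10. ZK1320.5, 661 bases on the other side, had 0 reads in 4 libraries and 2 in BPTMC replicate 3. Inside the array, T10B9.14, annotated as protein-coding between cyp-13A1 and cyp-13A2, had 3 reads in BPTMC replicate 2 and none in the other libraries. Outside the array, T10B9.9 lies 3290 bases from cyp-13A1 and had 1 and 1 reads in DMSO and 5, 10 and 8 in BPTMC. eyg-1, 18878 bases from cyp-13A8, had at most 3 reads in a library. On chromosome III, the cuticle collagen gene col-98, 779 bases from cyp-13A11, had lower values in each BPTMC library, with 274 and 278 CPM in DMSO, against 73.9, 181 and 56.1 CPM in BPTMC (log2 fold change -1.41 ± 0.51, edgeR adjusted p = 0.583). F14F7.4, 362 bases from cyp-13A12 on the opposite strand, had 8 and 0 reads in DMSO and 27, 4 and 17 in BPTMC. ZK1320.3, col-98, F14F7.4 and T10B9.13 had enough reads to be tested, and none of these passed.

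Among the 57 P450 genes tested, the 7 cyp-13A members stood between rank 6 (cyp-13A10) and rank 29 (cyp-13A12) in order of log2 fold change. cyp-13A6, cyp-13A7 and cyp-13A5 took ranks 10, 11 and 12, and cyp-13A2 and cyp-13A4 ranks 15 and 16. Of the 50 other P450 genes tested, 37 had a positive log2 fold change, with a median of 0.42, where the median of all tested genes was -0.09 and 45.5% of them were positive. A log2 fold change of at least 2 was reached by 5 of the 7 members, by 10 of the 50 other P450 genes and by 5.71% of all tested genes. edgeR called 1 of the 50 other P450 genes higher, cyp-34A10 (edgeR adjusted p = 0.0357), and 0 lower, against 0.105% and 0% of all tested genes. DESeq2 called 8 of the 50 higher, cyp-13A3 among them (DESeq2 adjusted p = 0.00386), and 2 lower, against 1.67% and 0.0211% of all tested genes. limma-voom called 0, against 0.00702%. cyp-34A10 had 1 and 0 reads in DMSO and 99, 112 and 73 in BPTMC, or 4.84, 5.72 and 3.71 CPM in BPTMC. Over the alternatives its adjusted p ran from 1.61e-13 (edgeR with the replicate block) to 0.423 (limma-voom). The call was lost in 7 of 14 of them, among them the fits without BPTMC replicate 2 (edgeR adjusted p = 0.0838) or BPTMC replicate 3 (0.220). Without DMSO replicate 2, which leaves a single DMSO library, the log2 fold change of cyp-34A10 was 6.58. cyp-34A7 (log2 fold change 5.69 ± 0.89) and cyp-34A9 (3.13 ± 0.50) had the next smallest p-values among the other P450 genes.

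Genes with patterns most like those of the leading members were found by the largest difference in log2 CPM deviations over the 5 libraries, among 8628 genes with at least 5 CPM on average. Closest to cyp-13A5 were ins-7, an insulin-like peptide gene, and C51E3.10, both within 0.34 log2 units in every library, and srsx-30, a chemoreceptor-family gene, within 0.36. C51E3.10 and srsx-30 overlap on opposite strands and had nearly parallel counts, so they may share reads. ins-7 had 2.46 and 1.41 CPM in DMSO, against 30.1, 8.01 and 13.2 CPM in BPTMC. Closest to cyp-13A10 were cyp-34A7 within 0.73 log2 units, ugt-36, a UDP-glucuronosyltransferase gene, within 0.84, and cest-35.2, of the carboxylesterase family, within 0.90. ugt-36 had 0 and 0.235 CPM in DMSO, against 3.62, 11.4 and 18.4 CPM in BPTMC. cyp-34A7 had 0.0448 and 0.423 CPM in DMSO, against 6.06, 15.2 and 15.4 CPM in BPTMC. All 3 were lowest in BPTMC replicate 1 among the BPTMC libraries, as cyp-13A10 was, whereas the 3 genes closest to cyp-13A5 were highest there. These orders largely follow from the choice of the genes, which used the same 5 libraries, and are no separate observation.

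**Figure D4:**
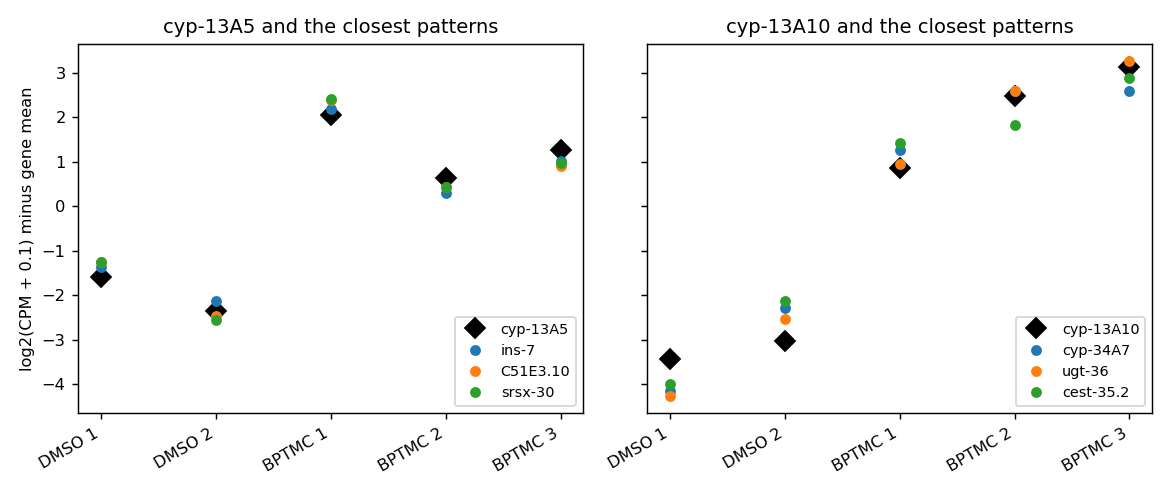
log2(CPM + 0.1) minus each gene's mean over the 5 libraries, for cyp-13A5 (left) and cyp-13A10 (right, black diamonds in both) with the 3 genes closest to each (coloured points). Genes near cyp-13A5 peak in BPTMC replicate 1, and those near cyp-13A10 are lowest there among the BPTMC libraries, which largely follows from choosing them for likeness over these libraries.

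P450 enzymes need electron partners, and none of the 3 listed passed the test. emb-8, the P450 reductase gene, had 47.4 and 68.8 CPM in DMSO, against 40.6, 59.5 and 59.9 CPM in BPTMC, with overlapping groups (log2 fold change -0.12 ± 0.38). The cytochrome b5 gene cytb-5.1 had 53.1 and 33.3 CPM in DMSO, against 158, 79.2 and 62.2 CPM in BPTMC (1.21 ± 0.50, edgeR adjusted p = 0.647). cytb-5.2 had a log2 fold change of 0.07 ± 0.39. In 1 of the 3, cytb-5.1, every BPTMC library was above both DMSO libraries, against 13.4% of all tested genes. The groups overlapped for emb-8 and cytb-5.2. Because the cyp-13A genes were selected on this contrast, their summed level is not set against these genes.

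Of 10 regulators of xenobiotic and intestinal genes, 0 passed edgeR over all genes. At an unadjusted p under 0.05, 4 of them were higher (7% of all tested genes), 1 was called higher by DESeq2 (1.67%), and 5 had every BPTMC library above both DMSO libraries (13.4%). nhr-8, a nuclear receptor linked to resistance to toxins, had 3.99 and 6.06 CPM in DMSO, against 29.5, 16.7 and 17.8 CPM in BPTMC (log2 fold change 2.09 ± 0.48, edgeR adjusted p = 0.270). ahr-1, the aryl hydrocarbon receptor gene, had overlapping groups at 2.10 and 0.94 CPM in DMSO, against 10.02, 1.63 and 5.80 CPM in BPTMC. elt-7, an intestinal GATA factor, had 3.90 and 2.54 CPM in DMSO, against 15.8, 4.90 and 6.25 CPM in BPTMC. The related factor elt-2 had 3.54 and 2.96 CPM in DMSO, against 9.83, 5.21 and 6.15 CPM in BPTMC (1.12 ± 0.49, edgeR adjusted p = 0.672). Both intestinal factors were highest in BPTMC replicate 1, as cyp-13A5 was, and their part in the cyp-13A levels was not tested.

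For the oxygen pathway linked to cyp-13A12, 0 of 8 genes passed edgeR, 0 passed DESeq2 and 0 had an unadjusted p under 0.05 (edgeR). Of all tested genes, 0.105%, 1.67% and 7% did so as higher in BPTMC, so counts of 0 among 8 genes say little about the pathway. In 2 of the 8, hif-1 and phy-2, every BPTMC library was above both DMSO libraries, against 13.4% of all tested genes. nhr-57, a target of HIF-1, had 1.03 and 0.282 CPM in DMSO, against 3.96, 0.817 and 0.661 CPM in BPTMC, with overlapping groups. hif-1 itself had 24.3 and 28.9 CPM in DMSO, against 38.4, 34.3 and 35.7 CPM in BPTMC (log2 fold change 0.44 ± 0.36). phy-2, a collagen prolyl hydroxylase gene, had a log2 fold change of 0.60 ± 0.52.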

How the data were processed

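The deposited files hold raw read counts per gene symbol, 1 file per sample, made by the authors from Lexogen QuantSeq libraries of 500 ng total RNA, per the labels' protocols, and, per the submitters' processing notes, with Bowtie2, bedtools and the WBcel235 genome. Their versions, gene models and use of strand were not given in the sources used here. Coordinates and spliced lengths come from the Ensembl 115 annotation of WBcel235, matched by symbol.

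Counts were fitted with edgeR 4.0.16 in R 4.3.3 (TMM, filterByExpr with a minimum count of 10, quasi-likelihood test, Benjamini-Hochberg over 14238 genes, called at an adjusted p under 0.05). SE is the size of the log2 fold change over the root of F. Pooled ratios and shares have exact 95% binomial intervals (SciPy 1.17.1), with a floor of 3 reads for a count of 0. Alternatives were DESeq2 1.42.0, limma-voom (limma 3.58.1), legacy edgeR dispersions, scaling by RLE or by totals, a looser and a CPM filter, omission of ribosomal RNA genes or of each library, and a replicate block.

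Named genes were all members, other cyp-13 genes, neighbours and overlapping genes, the 3 closest patterns to the most abundant member and to that with the smallest p, and up to 3 genes per list by p; elt-2 was named as an intestinal marker. Members and lists were chosen with earlier results of these data known. Sequence comparisons planned for the members were not run and no sequence was used here.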

Additional observations from a re-analysis of the deposited data

How the results depend on the processing

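All alternatives kept a positive log2 fold change for cyp-13A2 (2.51 to 2.76), cyp-13A4 (0.94 to 3.85), cyp-13A5 (2.98 to 3.82), cyp-13A6 (3.14 to 10.36, the highest with no DMSO read left), cyp-13A7 (3.31 to 4.76) and cyp-13A10 (5.40 to 6.55). cyp-13A12 ran from -0.03 to 1.06. The number of members called higher, 0 of 7, became 3 of 10 with no filter on low counts, where 65 of 22111 genes were called higher. It became 5 of 7 by DESeq2 (238 of 14238 genes) and 6 of 7 with the replicate block (1147 of 14238 genes). It was 1 of 7 without BPTMC replicate 1 (cyp-13A10, with 43 of 13420 genes) and 0 of 7 without BPTMC replicate 2 or 3. Over all genes, the 15 called higher became 2 with total-count scaling, 65 with no filter, 8 with at least 1 CPM in 2 or more libraries, 238 by DESeq2, 1 by limma-voom, 3 with legacy dispersions, 4 without rRNA genes and 1147 with the replicate block, and ran from 0 (without BPTMC replicate 3) to 43 (without BPTMC replicate 1), with 33 without DMSO replicate 1 and 6 without DMSO replicate 2. The 0 called lower became 2 with no filter, 3 by DESeq2 and 599 with the block. Among the other P450 genes, the 1 of 50 called higher became 0 with total-count scaling, by limma-voom, with legacy dispersions or without rRNA genes. It became 4 of 63 with no filter, 8 of 50 by DESeq2 and 10 of 50 with the block. With BPTMC replicate 2 or 3 omitted it was 0, and with BPTMC replicate 1 omitted it was 4 of 48. The 0 called lower became 1 with no filter, 2 by DESeq2 and 2 with the block. The causes were not tested. The labels share replicate numbers 1 and 2 without saying that they pair samples. Across genes, deviations correlated at 0.75 for replicates 1 and 0.32 for replicates 2, but at 0.66 for DMSO replicate 2 with BPTMC replicate 3; with 2 DMSO libraries, whose deviations mirror each other, these values are not separate and do not settle a pairing. Depth limits cyp-13A1, cyp-13A8 and cyp-13A11, which had 34 or fewer reads each in all.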
